A study of Eriocheir sinensis with 6 samples.

Results

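A set of 43 predicted genes of the Chinese mitten crab (Eriocheir sinensis) had no fragment in the muscle of any crab before the molt and were measured in every crab after it. They were chosen from the 18729 genes of the deposited table of FPKM, in which the fragments of a gene are divided by its length and by the size of the library. A member is a predicted gene model at 0 FPKM in all 3 pre-molt libraries, at 2 FPKM or more in all 3 post-molt libraries, and with its smallest post-molt value under 300 FPKM. Chromosomes CM024108.1, CM024112.1, CM024135.1, CM024162.1 and CM024166.1 were left out, which leaves 13853 predicted genes, so that the members made up 0.31% of them. The upper limit of 300 removed 0 genes, as the largest of the smallest post-molt values was 97.9 FPKM. Because the values of both stages chose these genes, their absence before the molt and their presence after it are described here without a test.

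The study compared muscle of healthy farmed crabs in the post-molt stage (A), soon after the old shell is shed, with muscle in the pre-molt stage (D), before it is shed. Per the labels, crabs of both stages had a mean weight of 8.41 ± 1.47 g, lived at 20 °C in natural light and received no further treatment. The study's methods describe them as juveniles and give 1 crab per sample, so that the 3 libraries of a stage are 3 animals. The tissue could not be checked against marker genes, since the gene IDs carry no names and 0 member IDs were found in the RefSeq gene table. The value columns carry another tissue prefix than the labels, but in every library they equalled the muscle values of the second deposited table up to gene length and 1 factor, which varied by at most 9.9e-10 of its size between genes. In tissue samples of this kind, fewer cells that express a gene and less RNA per cell cannot be told apart.

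Crabs grow by shedding their shell, and the cycle runs from inter-molt through pre-molt and molt to post-molt. Ecdysteroids, the steroid hormones that drive the molt, build up before the shell is shed and are low soon afterwards. Crustacean muscle is remodelled over the same period, as claw muscle is partly broken down before the molt and rebuilt after it, while the new cuticle next to it hardens. The members are known only by predicted IDs, which hold the chromosome and an order number along it, so they are described here by level, length and place and no role is given to them.

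The libraries differed in how finely they resolved low genes. Whole fragments were recovered from the values, and 4168778 to 5117237 fragments lay behind a post-molt library and 5810158 to 6768426 behind a pre-molt library. At the median gene length, 1 fragment equalled 0.494 to 0.744 FPKM after the molt but only 0.176 to 0.236 FPKM before it. A gene of 1000 bases with 3 fragments over the whole pre-molt group would be at 0.228 FPKM, and with 3 fragments over the post-molt group at 0.728 FPKM. The library size that the deposited FPKM imply was 0.28 to 0.344 of the recovered total after the molt, against 0.633 to 0.819 before it, so FPKM sets post-molt values higher against pre-molt values than a share of all fragments would. The zeros of the members lie in the stage with the finer FPKM step. That finer step comes partly from this scaling and only partly from the larger number of recovered fragments.

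The members spanned low to moderate levels after the molt. The mean post-molt level of a member ran from 3.08 to 147 FPKM, with a median of 14.8 FPKM. Of the 43 genes, 6 were above 50 FPKM, 21 lay between 10 and 50 FPKM and 16 were under 10 FPKM. Summed over the members, the level was 1344 FPKM in crab 1, 1158 FPKM in crab 2 and 970.1 FPKM in crab 3. Counted in fragments, the members held 0.0399%, 0.0261% and 0.0232% of the recovered fragments of those libraries. These genes thus took a small part of the post-molt signal in each crab.

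**Figure D1:**
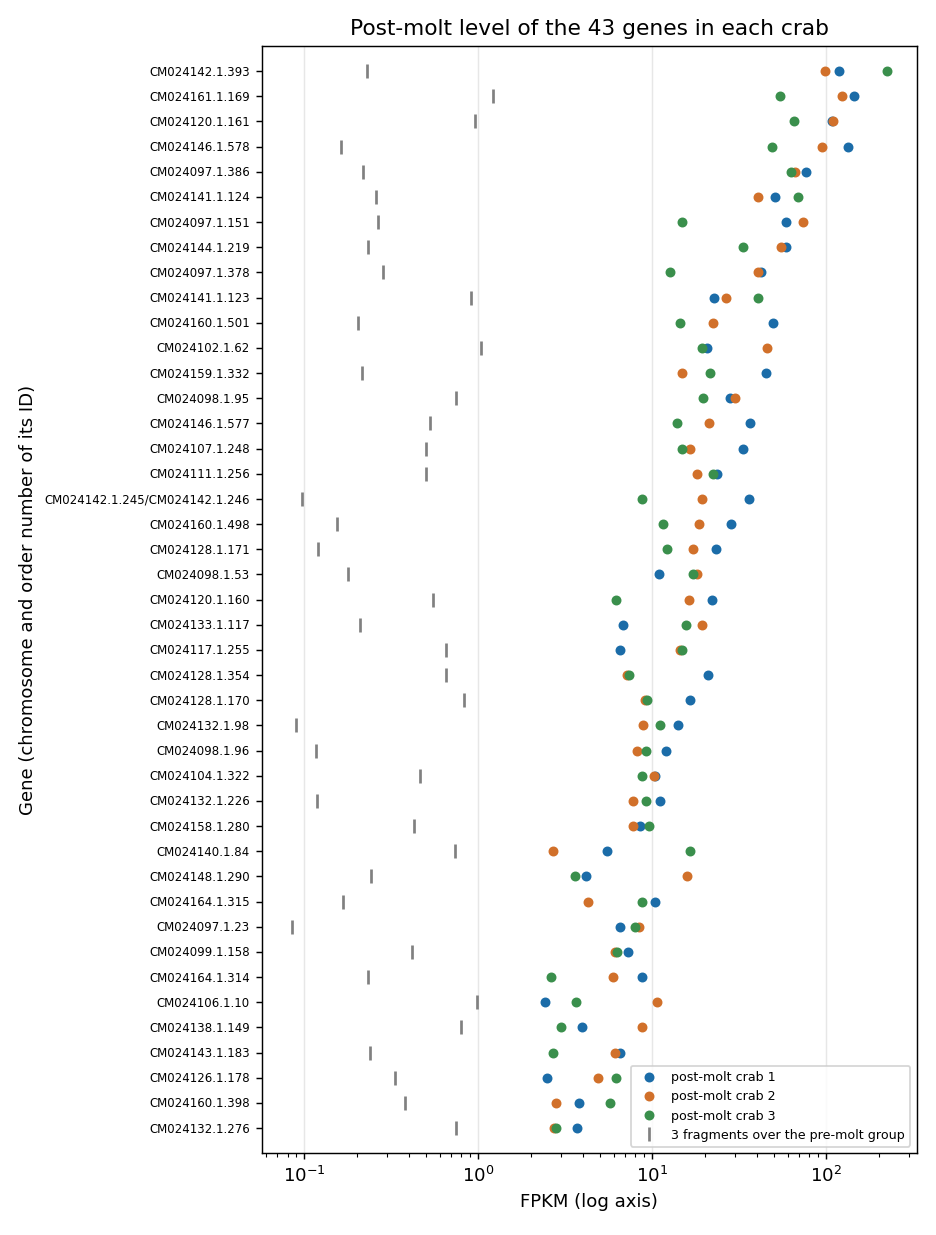
FPKM (log axis) of each of the 43 genes in the 3 post-molt crabs (coloured points), ordered by the mean, with the level that 3 fragments over the pre-molt group would give (grey tick). All pre-molt values are 0, every post-molt point lies to the right of its tick, and the smallest post-molt value is 2.43 FPKM.

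The highest member was evm.TU.CM024142.1.393, with 119, 97.9 and 223 FPKM in post-molt crabs 1, 2 and 3, a mean of 147 ± 66.7 FPKM (SD, n = 3), from 582 fragments. Next was evm.TU.CM024161.1.169 with 144, 124 and 54.3 FPKM, where crab 3 was the low one. It is the shortest member, at 189 bases, so that only 88 fragments lay behind this level. The gene evm.TU.CM024120.1.161, also short at 237 bases, stood at 108, 109 and 65.0 FPKM. The longer gene evm.TU.CM024146.1.578, at 1413 bases, was at 134, 94.2 and 48.5 FPKM, with crab 1 the highest and 572 fragments in all.

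Of the other genes among the 8 highest, evm.TU.CM024097.1.386 was the steadiest, at 76.4, 66.2 and 62.8 FPKM. The levels of evm.TU.CM024141.1.124 were 50.9, 40.8 and 68.9 FPKM, highest in crab 3. Those of evm.TU.CM024144.1.219 were 58.6, 54.7 and 33.2 FPKM, lowest in crab 3. The gene evm.TU.CM024097.1.151 differed most among these, with 58.7 and 73.9 FPKM in crabs 1 and 2 and 14.9 FPKM in crab 3.

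At the other end, members passed the minimum on a handful of fragments. The 3 lowest values belonged to evm.TU.CM024106.1.10 (2.43, 10.7 and 3.66 FPKM, from 1, 3 and 1 fragments), evm.TU.CM024126.1.178 (2.47, 4.85 and 6.20 FPKM, from 3, 4 and 5 fragments) and evm.TU.CM024164.1.314 (8.70, 5.98 and 2.62 FPKM, from 15, 7 and 3 fragments). Just outside the minimum lay evm.TU.CM024150.1.266 with 2.61, 1.92 and 11.8 FPKM, evm.TU.CM024126.1.177 with 1.88, 2.77 and 4.72 FPKM, and evm.TU.CM024113.1.50 with 5.06, 1.66 and 7.62 FPKM, all 3 at 0 before the molt. Their lowest crabs held 1, 3 and 2 fragments, about as many as those of the members just inside the limit. Of the 43 members, 5 rested on 10 or fewer recovered post-molt fragments and 4 of these on a single fragment in some library. These 5, evm.TU.CM024106.1.10 among them, are the members whose length was not given. Their fragments were counted at the smallest fitting length and are minimums.

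Members were short gene models. Their median length was 809 bases, between 189 and 2688 bases, against 1183 bases for all predicted genes outside the 5 chromosomes. Shorter than 500 bases were 17 members (39.5%), against 20.6% of those predicted genes. A short gene reaches 2 FPKM on fewer fragments and gives fewer chances of a fragment before the molt, so length is tied to the way the members were chosen.

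How far a member rose can only be bounded from below, because its pre-molt libraries were all at 0. The bound was set as the mean post-molt FPKM over the FPKM that 3 fragments over the whole pre-molt group would give. Its median was 45.4-fold, from 4.13 to 637-fold, with 40 members at 10-fold or more, 27 at 30-fold or more and 13 at 100-fold or more. Had a member been at the same deposited FPKM before the molt as after it, a median of 136 fragments would have been expected over the pre-molt group. The smallest such number was 12.4. For an equal share of the recovered fragments, fewer would have been expected, as the bounds by share given below are lower. By construction the bound grows with the number of post-molt fragments, so it orders the genes by how many were counted, and the true folds of these genes have no known order.

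The bounds depended on what the levels were divided by. With each gene's share of the library's recovered fragments in place of the deposited FPKM, the median bound was 20.2-fold, from 1.79 to 269-fold, with 30 members at 10-fold or more. Leaving out a pre-molt library lowers the bound by construction, to a median of 29.8-fold without pre-molt replicate 1 and 28.3-fold without pre-molt replicate 3. With the 5 members of 10 or fewer fragments left out, a choice made after seeing the data, it was 73.0-fold.

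**Figure D2:**
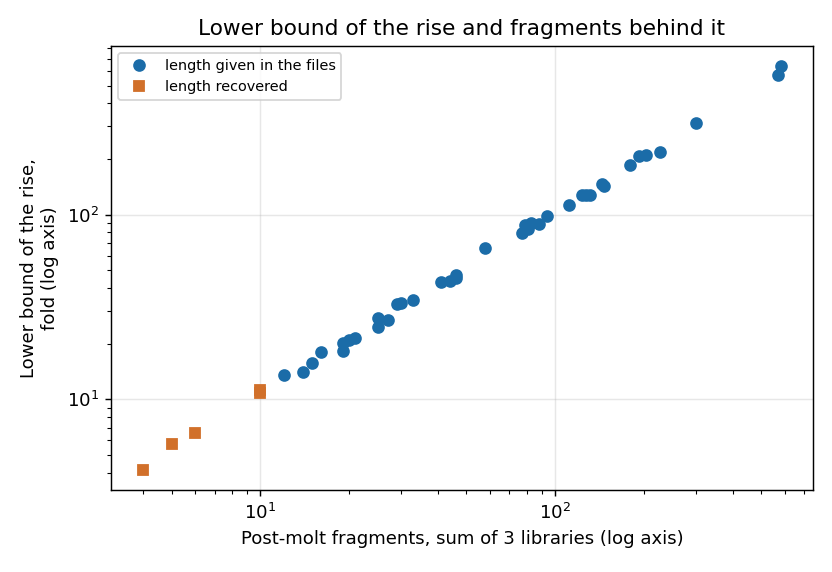
Lower bound of the rise by the deposited FPKM, in fold (log axis), against post-molt fragments summed over 3 libraries (log axis), 1 point per gene. The points run along a narrow band from 4.13-fold at 4 fragments to 637-fold at 582 fragments, and the 5 genes whose length had to be recovered (squares) lie at its lower end.

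The largest bounds by FPKM were 637-fold for evm.TU.CM024142.1.393 and 571-fold for evm.TU.CM024146.1.578. At the same deposited FPKM as after the molt, 1910.2 and 1712 pre-molt fragments would have been expected, and 0 were found. By shares the bounds of these genes were 269-fold and 252-fold. They were followed by evm.TU.CM024097.1.386, with 315-fold by FPKM and 136-fold by shares. A gene of moderate level but greater length came next by FPKM, the merged model evm.TU.CM024142.1.245_evm.TU.CM024142.1.246 of 2351 bases. It was at 35.8, 19.2 and 8.74 FPKM, with a bound of 219-fold by FPKM and 98.1-fold by shares. Likewise evm.TU.CM024128.1.171, at 23.2, 17.1 and 12.1 FPKM, had a bound of 146-fold by FPKM and 63.9-fold by shares. The bounds by FPKM of evm.TU.CM024160.1.501 (49.4, 22.3 and 14.4 FPKM) and evm.TU.CM024159.1.332 (45.0, 14.8 and 21.5 FPKM) were 142-fold and 127-fold. Taken from the lowest post-molt crab alone, the bound by FPKM was 10-fold or more in 36 of the 43 genes.

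Agreement among the post-molt crabs was looked at next. The highest of the 3 crabs exceeded the lowest by a median of 2.27-fold, from 1.19 to 6.13-fold. In 18 members the ratio was 2 or less, in 15 it lay above 2 and up to 3, and in 10 it was over 3. With FPKM rescaled to a common sum per library the median was 2.40-fold. Over the 2 crabs that remain without post-molt replicate 3 the median was 1.43-fold, and over those without post-molt replicate 1 it was 1.54-fold.

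The steadiest members were evm.TU.CM024099.1.158 (7.29, 6.13 and 6.27 FPKM), evm.TU.CM024104.1.322 (10.4, 10.2 and 8.70 FPKM), evm.TU.CM024097.1.386 and evm.TU.CM024158.1.280 (8.47, 7.79 and 9.56 FPKM), with ratios of 1.19 to 1.23. Of these only evm.TU.CM024097.1.386, with 301 fragments, had more than 20 fragments. Counting alone would give the first of them a coefficient of variation of 45.5%, while 9.60% was observed, so its fragments are too few to tell how closely the crabs agreed.

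The members that differed most were evm.TU.CM024140.1.84 (5.46, 2.68 and 16.5 FPKM), evm.TU.CM024097.1.151 (ratio 4.96), evm.TU.CM024106.1.10 (ratio 4.42) and evm.TU.CM024148.1.290 (4.17, 15.8 and 3.59 FPKM). The high crab was crab 3 in the first and crab 2 in the others. Only evm.TU.CM024097.1.151, with 180 fragments, was measured well: its coefficient of variation was 62.3%, where counting would give 13.1%. Over all members the median coefficient of variation was 41.4%, the median from counting was 26.0%, and 29 of 43 exceeded their own counting value.

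**Figure D3:**
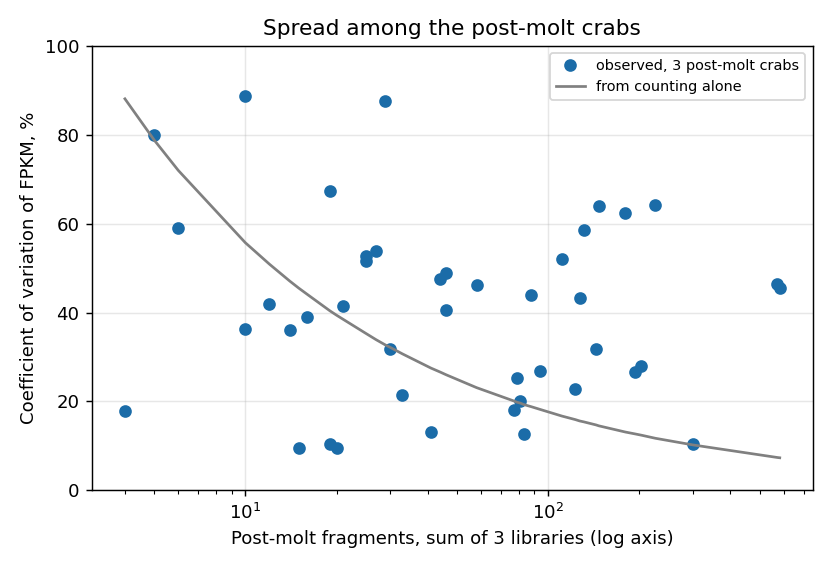
Coefficient of variation of FPKM over the 3 post-molt crabs in percent against post-molt fragments summed over 3 libraries (log axis). Points are the 43 genes and the line is the value that counting alone gives at equal levels. Below 30 fragments points fall on both sides of the line, and 29 of the 43 lie above it.

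The spread was then set beside that of other genes in the same class of fragments. Other predicted genes within the same post-molt limits numbered 6504. With 30 or fewer fragments the median ratio was 2.39 over 18 members and 2.04 over 1637 other genes. From 31 to 100 fragments it was 1.67 over 12 members and 1.83 over 2371 others. Above 100 fragments it was 2.46 over 13 members and 1.65 over 2495 others. The members thus had the wider spread in the lowest and the highest class and the narrower one in between, as a description over the same 3 crabs.

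Crab 1 was most often the highest. It held the highest value of 25 members (58.1%), against 37.7% of the other predicted genes within the same limits. Crab 2 was the highest in 10 members and crab 3 in 8. Crab 3 held the lowest value of 21 members (48.8%), against 41.9% of the others. The values fell from crab 1 over crab 2 to crab 3 in 15 of the 43, while in evm.TU.CM024142.1.393, evm.TU.CM024141.1.124 and evm.TU.CM024140.1.84 crab 3 was the highest.

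Among all genes at 0 before the molt, most were seen in a single crab after it. The median of 1 fragment in those of a single library is a minimum, as lengths not given were taken as the smallest that fit. Of 277 such predicted genes, 154 were above 0 in 1 post-molt library, 59 in 2 libraries and 64 (23.1%) in 3. The members are 43 of those 64. The other 21 fell under 2 FPKM in some crab and had a median of 9 fragments, against 46 in the members. Another 18 genes met the post-molt limits but had 1 fragment over the pre-molt group, and the member list grew to 61 when they were admitted. The highest of them, evm.TU.CM024142.1.397, was at 255, 409.5 and 85.9 FPKM, above every member in its mean, so 1 fragment decided whether a gene of this level was on the list.

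The opposite pattern held fewer genes at the minimum of 2 FPKM, but more genes without that minimum. At 0 in all 3 post-molt libraries and at 2 FPKM or more in all 3 pre-molt libraries were 17 predicted genes outside the 5 chromosomes, with a median mean of 4.22 FPKM and none above 7.35 FPKM. The bound of their fall had a median of 2.82-fold and reached 12.3-fold. The coarser post-molt libraries hold more zeros, with 444 predicted genes at 0 there, and give weaker bounds, so the sizes of the lists cannot be compared directly.

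The members were spread over 27 chromosomes of the 67 considered. CM024097.1 carried 4 members among its 321 listed predicted genes, while CM024098.1, CM024128.1, CM024132.1 and CM024160.1 carried 3 each and the remaining 22 carried 1 or 2. The largest share was on CM024128.1, at 2.22% of its 135 genes, from 3 members of which a pair stood side by side.

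Within a chromosome, members often stood next to each other. Among the 43, 12 (27.9%) formed 6 pairs with consecutive order numbers. On CM024120.1, genes 160 and 161 were at 14.8 and 94.1 FPKM on average, and on CM024146.1, genes 577 and 578 were at 23.8 and 92.2 FPKM. On CM024141.1, gene 123 was at 22.6, 26.6 and 40.8 FPKM, highest in crab 3 as was gene 124 with its mean of 53.5 FPKM. In these pairs the latter gene was the more abundant.

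The other pairs were lower. On CM024098.1, genes 95 and 96 were at 25.8 and 9.79 FPKM, on CM024128.1, genes 170 and 171 at 11.6 and 17.4 FPKM, and evm.TU.CM024164.1.314 and evm.TU.CM024164.1.315 at 5.77 and 7.82 FPKM. In the pair of CM024146.1 the former gene was at 0.273, 0.225 and 0.284 of the latter in crabs 1, 2 and 3, so that both moved together. In the pair of CM024164.1 that ratio ran from 0.299 to 1.39, and the crabs were in the same order in 1 of the 6 pairs. Gene coordinates and strands are not used here, and adjacent models that overlap or share reads cannot be told apart from separate genes.

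The genes beside the members, whose values the choice did not use, were examined with the test applied to the whole table. This was limma on log2(FPKM + 1) over the 17465 genes whose mean was at least 0.5 FPKM. A gene was called where its Benjamini-Hochberg adjusted p was at most 0.05 and its log2 fold change at least 1 in size. Over all genes tested, 5.93% (1036) were called higher in post-molt muscle and 280 lower. Without pre-molt replicate 1, 2 or 3 the higher genes numbered 659, 752 and 677, and the lower genes 104, 163 and 109. With the FPKM of every library brought to the same sum (TPM), where the median of all log2 fold changes went from −0.09 to −0.78, 601 were called higher and 5889 lower, so that higher genes made up 9.26% of the calls in place of 78.7%. All 43 members were called in the limma test, and 41 in edgeR on the recovered fragments, where 8.77% of all genes were, but the same contrast had chosen them and nothing is read from these counts.

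Of the 86 order numbers on either side of a member, 12 were members themselves, 31 held no listed gene and 43 held another gene, of which 41 were tested. Of these 41 neighbours, 24 (58.5%) were called higher in post-molt muscle and 0 lower, beside 5.93% called higher over all genes. The 24 log2 fold changes ran from 1.71 to 11.35. The 17 neighbours that were not called had log2 fold changes from −1.21 upward, with a median of 0.12 and 10 above 0. Under TPM 19 of the 41 neighbours were called higher, where 3.44% of all genes were. The largest drop on leaving out a library was to 18, without pre-molt replicate 1, where 3.77% of all genes were called higher.

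**Figure D4:**
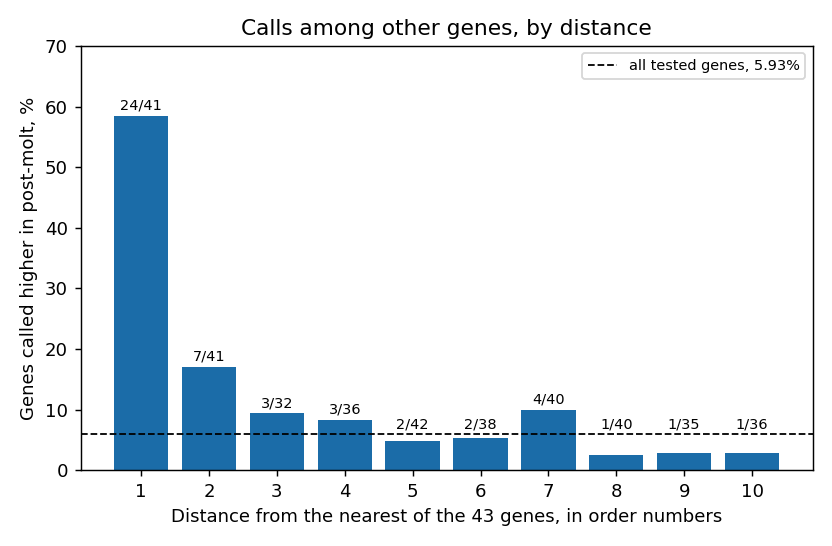
Percent of tested genes called higher in post-molt muscle (limma) against their distance in order numbers from the nearest of the 43 genes, which are left out themselves. Bars carry called over tested genes and the dashed line is the share over all tested genes. The share is 58.5% at distance 1, 17.1% at 2 and 9.38% at 3, and 5.24% over distances 4 to 10.

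The share fell off within a few genes. At 2 order numbers away 7 of 41 tested genes (17.1%) were called higher, at 3 away 3 of 32 (9.38%), and from 4 to 10 away 14 of 267 (5.24%). Other genes called higher in post-molt muscle also had called neighbours: beside 722 such predicted genes, 32.4% of 926 tested places were called higher. Beside the 129 of them whose ratio of means was at least the median bound of the members, it was 44.4% of 144 places. The difference between these shares and that of the members was not tested. A called gene that is not a member stood right beside 22 of the 43 members (51.2%), against 6.71% of the other tested predicted genes outside the 5 chromosomes.

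Some neighbours were far more abundant than the members after the molt. The neighbour evm.TU.CM024142.1.247 was at 64245, 40021 and 35485 FPKM in the post-molt crabs and at 12.1, 14.1 and 24.9 FPKM before the molt (limma log2 fold change 11.35, SE 0.37, adjusted p = 2.8e-07). It stood beside the merged model evm.TU.CM024142.1.245_evm.TU.CM024142.1.246 and was 2193 times as high, with the crabs in the same order. On CM024107.1, evm.TU.CM024107.1.249 was at 6616, 4969 and 2695 FPKM after and 2.15, 3.43 and 6.67 FPKM before the molt (limma log2 fold change 9.87, SE 0.44, adjusted p = 1.7e-06), 221 times its member evm.TU.CM024107.1.248. Likewise evm.TU.CM024117.1.256 and evm.TU.CM024138.1.148 were 242 and 225 times as high as the members beside them. Unlike the members, each of these 4 neighbours had 44 or more fragments before the molt.

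Other neighbours had few fragments before the molt. The neighbour of the highest member, evm.TU.CM024142.1.394, was at 733, 599 and 689.9 FPKM after the molt and 0.220, 0 and 0.602 FPKM before it (limma log2 fold change 9.07, SE 0.29, adjusted p = 2.8e-07), from 4 pre-molt fragments. On CM024160.1 a run of 5 genes held the members 498 and 501 and 3 called neighbours, evm.TU.CM024160.1.499, evm.TU.CM024160.1.500 and evm.TU.CM024160.1.502, which had 3, 1 and 3 fragments before the molt. On CM024128.1 the pair 170 and 171 was followed by evm.TU.CM024128.1.172, at 77.9, 60.4 and 39.6 FPKM after and 0, 0 and 1.12 FPKM before the molt. Among the called neighbours, evm.TU.CM024111.1.257 and evm.TU.CM024126.1.177 were themselves at 0 before the molt and missed the member list because crab 3 and crab 1 were under 2 FPKM.

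Over the 24 called neighbours, 14 were higher than their member after the molt and 10 lower, from 0.0454 to 2193 times its level. The crabs were in the same order in 11 of the 24. If a member had stood at the same ratio to its called neighbour before the molt as after it, it would have been expected to give fewer than 3 fragments over the pre-molt group in 15 of the 24 cases. In 2 of the 15 the neighbour was itself at 0 before the molt, which fixes the expected number at 0. For the 15 cases the zero of the member does not separate it from its neighbour. In the other 9 it would have been expected to give 3 or more, up to 63.2 for evm.TU.CM024098.1.96 beside evm.TU.CM024098.1.97. For evm.TU.CM024161.1.169 the number was 42.9 beside evm.TU.CM024161.1.168 but 2.94 beside evm.TU.CM024161.1.170, which was closer to it in level. Likewise evm.TU.CM024160.1.501 fell on both sides, with 3.18 beside evm.TU.CM024160.1.502 and 2.89 beside evm.TU.CM024160.1.500.

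**Figure D5:**
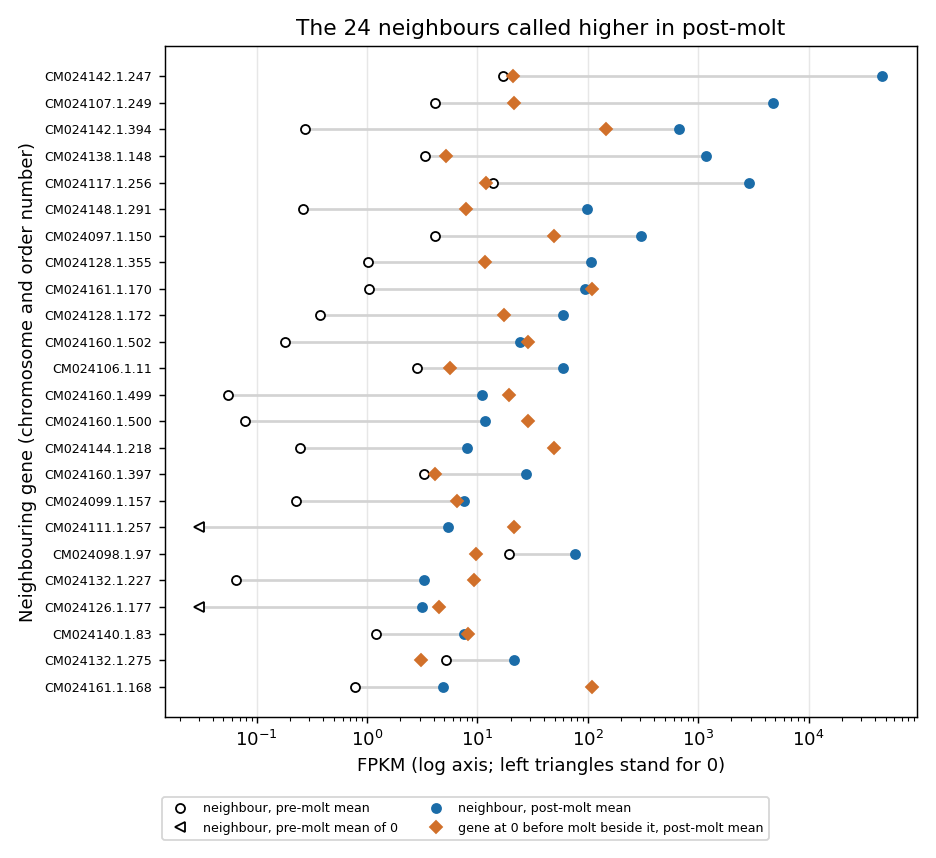
Mean FPKM (log axis, 3 crabs per stage) of the 24 neighbours called higher, before the molt (open symbols) and after it (filled circles), with the post-molt mean of the gene beside them that is at 0 before the molt (diamonds). Rows are ordered by log2 fold change, and neighbours reach from 3.13 to 46584 FPKM after the molt while the genes beside them stay between 3.08 and 147 FPKM.

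Finally, the members were looked up in 8 gene lists of the study, made of genes whose expression and chromatin accessibility both changed between neighbouring stages. On the list of genes lower in inter-molt than in post-molt muscle were 7 of the 43 members (16.3%), where 2.47% of all tested genes and 17.4% of the genes called higher here are on that list. They were evm.TU.CM024097.1.23, evm.TU.CM024102.1.62, evm.TU.CM024120.1.161, evm.TU.CM024132.1.226, evm.TU.CM024133.1.117, evm.TU.CM024158.1.280 and evm.TU.CM024160.1.398. The gene evm.TU.CM024102.1.62, at 20.7, 45.7 and 19.4 FPKM after the molt, was also on the list that rises from pre-molt to molt. That list held 2.33% of the members, 1.77% of all tested genes and 8.4% of the genes called higher here. No member was on the other 6 lists, nor among the 4 of the study's candidate receptors that were compared (FMRFaR, GRM7, mth2 and gpr161). The lists were drawn partly from these libraries, so that membership is not independent evidence.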

How the data were processed

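Per the labels and the submitters' processing notes, reads were aligned with HISAT2 2.0.5 and fragments counted per gene with featureCounts 1.5.0-p3 (the sources used here do not say whether strand was used). The authors deposited FPKM for 18729 genes, each reaching 1.00 in some library, and a comparison of 1684 genes holding a normalized signal per library (counts over a size factor), their means, log2 fold changes and p-values, and gene lengths. Of that table only the signal per library and the lengths in bases were used. The comparison columns were not.

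Fragments were recovered as whole multiples of the FPKM of 1 fragment, and 100% of values were whole within 0.001. Lengths were known for 38 members and recovered as the smallest fitting length for 5. This gives the smallest bound, the fewest fragments and the largest counting value. Genes outside the comparison of 1684 had recovered lengths too, so their fragment numbers are minimums, least certain where few libraries were above 0. For known lengths, recovery was exact in 98.7%. Floors and counting values cover counting error only.

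Calls came from limma 3.58.1 in R 4.3.3 (moderated variances, intensity trend, pseudocount 1, group the only term), adjusted over all 17465 genes. Fold changes on the log2(FPKM + 1) scale understate changes of low genes. The scripts were tested on simulated data. Named genes were the 8 highest, the 4 with the largest bounds not yet named, the 4 with the smallest and the 4 with the largest crab ratio, all in adjacent pairs, and the 3 lowest and 3 nearest outside the minimum. Neighbours, list members and genes with 1 pre-molt fragment that are named besides were chosen after their values were seen. The members and lists were chosen with earlier results of these data known.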

Additional observations from a re-analysis of the deposited data

How the results depend on the processing

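The number of members stayed within 1.5 times of 43 under every alternative run, from 30 with TPM to 61 with 1 pre-molt fragment admitted, and from 48 to 58 on leaving out 1 library. The median bound was 14.9-fold with a floor of 3 fragments in each pre-molt library, 20.2-fold with shares of each library's recovered fragments and 73.0-fold with only members of more than 10 fragments, and 28.3 to 50.1-fold on leaving out 1 library. The first follows from the higher floor, and the second from the library sizes that FPKM imply. The third follows from leaving out the members with the lowest bounds. Without a pre-molt library the bound fell to 28.3 to 32.7-fold, as fewer pre-molt libraries lie behind the floor. The cause of the changes without a post-molt library was not tested. The median crab ratio was 1.43 to 1.77 on leaving out 1 post-molt library, as the highest and lowest are then taken from 2 crabs. Genes called higher by limma numbered 601 with TPM and 659 to 1029 on leaving out 1 library. Genes called lower, 280 in the test as reported, moved more: to 5889 with TPM, 607 with quantile normalization, 437 in edgeR, 147 with a pseudocount of 5 and 104 to 284 on leaving out 1 library. Members called numbered 35 to 43 and neighbours called 18 to 28 over the alternatives of the test, edgeR 4.0.16 and DESeq2 1.42.0 on recovered fragments included. DESeq2 gave an adjusted p to 15753 genes. In all, 60 alternative values, those given here included, stayed within 1.5 times or within the spread of the libraries, and 12 did not.

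Replicate numbers were shared by name only, since the correlation of the deviations from the group means between libraries of one number was −0.03, −0.03 and −0.05. With the replicate block 843 genes, 43 members and 24 neighbours were called higher by limma, and 160 genes lower. Low depth limits the 5 members with 10 or fewer recovered fragments most, though these numbers are minimums. Place was read from order numbers alone, so distances in bases, strand and overlap of models were not analysed here.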
